A study of Mus musculus with 16 samples.

Results

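The DNA replication and S phase genes described here are 45 protein-coding genes of the mouse, chosen by symbol from the 49139 named genes of the count tables, and every member was found in both tables. They were measured by bulk RNA sequencing in 16 libraries of sorted 4T07 cells, a mouse mammary carcinoma line. Surviving GFP cells and mCherry cells came from 3 tumours whose mice, listed as C57BL/6J x Balb/cJ crosses, received Jedi T cells on day 7 of tumour growth, and from another 3 tumours treated on day 15, with harvest 7 days after the T cells. Jedi T cells recognise GFP and here lacked PD1, and each of these tumours had been seeded in the mammary fat pad with equal parts of GFP and mCherry cells, so that the mCherry cells were untargeted neighbours. A further 4 control libraries held mCherry cells of tumours with neither GFP cells nor Jedi T cells, with no day given in the labels. All cells carried a transduced reporter, and the age of the mice is not stated in the sources used here. No library held GFP cells spared by T cells, so the reporter and the attack cannot be told apart in any comparison of GFP with mCherry cells. Day 7 was sequenced in run 1 and all other libraries in run 2, so day and run cannot be told apart, while each comparison of GFP with mCherry cells and each comparison with the controls lay within 1 run.

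A cell copies its DNA once per division. Origins are licensed in G1 by ORC, Cdc6 and Cdt1, which load the MCM ring, and the ring becomes an active helicase with Cdc45 and GINS once the Cdc7 kinase and its partner Dbf4 have acted on it. Polymerases alpha, epsilon and delta then copy the strands with the PCNA clamp, while nucleotide synthesis, histone supply and chromatin assembly run alongside. Many of these genes are transcribed at the passage from G1 into S phase under E2F factors, driven by cyclin E, so their RNA is widely read as a sign of cells in S phase. In bulk RNA, fewer cells in S phase and less of each RNA per cell cannot be told apart.

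E2F factors are known to bind octamers of the kind TTTCCCGC and TTTGGCGC near the starts of replication genes, and NF-Y binds CCAAT. Windows of 300 bases, from 250 before to 50 after each gene start, were taken from RefSeq (GRCm38.p6) for the 39 members that matched by symbol. At least 1 of the octamers TTTCCCGC, TTTGGCGC, TTTCGCGC and TTTGCCGC stood on either strand in the windows of 14 of the 39 members, or 35.9%, against 2.32% of 27025 genes with a window. CCAAT stood in 23 of the 39, or 59.0%, against 37.9% of all genes. TTTGAA, the core of the CHR element of genes expressed late in the cycle, stood in 17.9% of the members and 18.1% of all genes. The median G and C content was 58.3% in the members' windows and 52.7% in all windows. 4 windows are shown with E2F-type octamers and CCAAT, on either strand, in capitals. Mcm6, with 3 octamers the most among the members, and Rfc3, with 2 octamers the most among members not called on day 15, were picked after the matches were seen. Mcm10 had the smallest p on day 15 and Slbp the second highest, and each holds 3 CCAAT boxes and no octamer. The windows lie on the minus strand at chr1:128359656-128359955 for Mcm6, chr5:151651159-151651458 for Rfc3, chr2:5012742-5013041 for Mcm10 and chr5:33652525-33652824 for Slbp, and are written along the gene.
Mcm6: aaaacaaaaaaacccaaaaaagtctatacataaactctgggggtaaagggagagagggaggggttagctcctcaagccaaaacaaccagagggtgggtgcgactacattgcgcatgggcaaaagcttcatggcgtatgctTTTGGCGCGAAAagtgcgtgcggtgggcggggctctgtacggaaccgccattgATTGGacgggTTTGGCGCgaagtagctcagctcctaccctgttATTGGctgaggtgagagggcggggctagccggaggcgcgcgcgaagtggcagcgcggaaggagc
Rfc3: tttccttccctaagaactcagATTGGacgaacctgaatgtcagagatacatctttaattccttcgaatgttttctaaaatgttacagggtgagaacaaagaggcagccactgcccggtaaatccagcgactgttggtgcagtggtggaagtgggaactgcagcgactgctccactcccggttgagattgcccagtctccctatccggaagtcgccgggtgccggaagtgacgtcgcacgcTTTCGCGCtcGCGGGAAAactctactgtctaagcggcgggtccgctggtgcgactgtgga
Mcm10: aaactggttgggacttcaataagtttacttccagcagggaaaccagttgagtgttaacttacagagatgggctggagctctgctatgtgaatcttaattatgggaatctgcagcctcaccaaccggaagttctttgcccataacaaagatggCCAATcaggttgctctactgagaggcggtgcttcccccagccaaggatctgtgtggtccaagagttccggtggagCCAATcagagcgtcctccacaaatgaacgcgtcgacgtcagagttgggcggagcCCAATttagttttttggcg
Slbp: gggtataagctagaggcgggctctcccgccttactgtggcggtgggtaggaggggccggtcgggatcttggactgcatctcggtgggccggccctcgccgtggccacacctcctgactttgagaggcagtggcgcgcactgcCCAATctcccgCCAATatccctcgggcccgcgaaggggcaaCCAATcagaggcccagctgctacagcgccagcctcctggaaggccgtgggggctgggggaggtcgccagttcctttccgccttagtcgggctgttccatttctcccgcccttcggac
In Mcm6 the first pair of octamers overlap on opposite strands. The windows of Dut, second in p on day 15, and Cdc7, with the highest p of all members, hold neither motif. The Dut window (chr2:125247265-125247564) lies wholly downstream of the gene start in GENCODE M21 (125247190). Sequence before that start was thus not scanned for Dut. The windows of Cdc6, Mcm7 and E2f1 also lie wholly downstream of their gene starts in GENCODE M21. Those of Mcm5, Fen1, Lig1 and E2f2 lie wholly upstream of theirs.

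**Figure D1:**
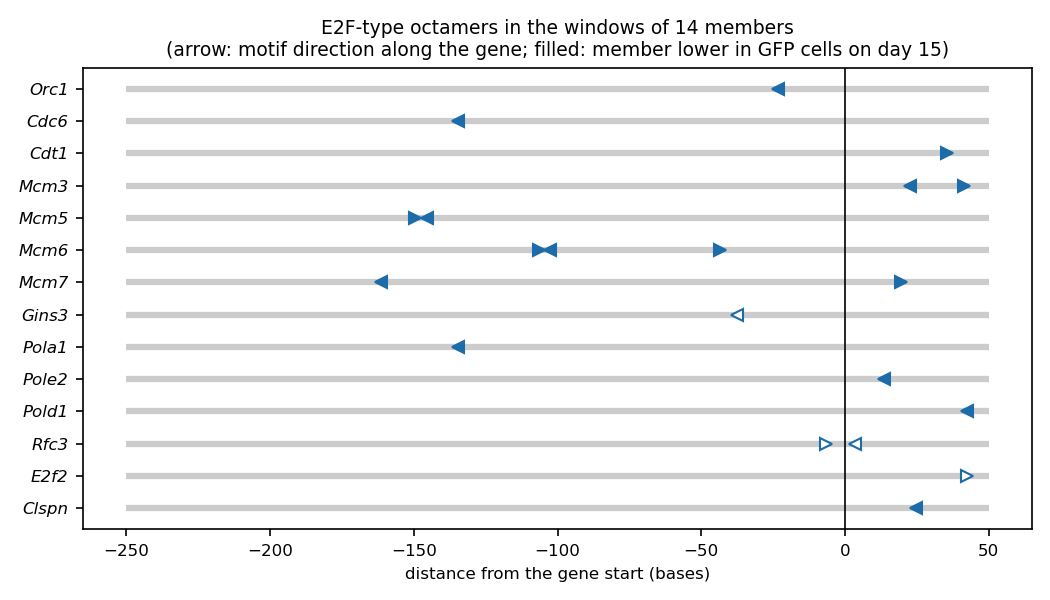
Position of each E2F-type octamer along the 300-base windows of the 14 members that hold one, in bases from the gene start. Arrows point along the motif, and open arrows mark Gins3, Rfc3 and E2f2, which were not called lower in GFP cells on day 15. Of 20 octamers, 13 lie within 100 bases before or 50 bases after the start.

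Libraries held 9412040 to 14535791 counts for GFP cells and 12942893 to 19970822 for mCherry cells on day 7, 21183324 to 24880582 for GFP cells and 21832170 to 22248031 for mCherry cells on day 15, and 24367417 to 32808354 for the controls. All 45 members passed the filter on low counts in every comparison, with counts from 25 for E2f2 in 1 library to 7760 for Pcna in another. Of 7 markers listed for the carcinoma line, Vim, Krt8 and Krt18 stood at 85.2 CPM or more in every library, Cdh1 at 6.14 to 37.6 CPM, and Epcam and Krt19 at 3.085 CPM or less, while Krt14 had no count on day 7 and at most 0.3535 CPM in run 2. These markers moved with the colours too: on each day edgeR called Cdh1 higher in GFP cells (3.78-fold on day 7 and 2.56-fold on day 15) and Krt8 and Krt18 lower (1.95-fold and 3.30-fold on day 7, 1.46-fold and 1.97-fold on day 15). The sources used here do not give the CD45 gate of the sort. Markers of other cells moved with the colours as well. All 12 macrophage markers were lower in GFP than in mCherry cells on day 7, where their summed level was 101.8 to 172 CPM in GFP and 596 to 830.2 CPM in mCherry libraries, and 6 of the 9 tested were lower on day 15, at 53.6 to 71.8 CPM in GFP, 85.8 to 108 CPM in mCherry and 73.4 to 189 CPM in control libraries. All 8 endothelial markers were lower in GFP cells on day 7 and 4 of 8 on day 15, with sums of 6.76 to 8.35 CPM in GFP and 27.5 to 57.9 CPM in mCherry libraries on day 7, and 12.3 to 15.4 CPM in GFP and 16.3 to 37.6 CPM in mCherry libraries on day 15. Of the fibroblast markers, 1 of 5 tested was lower in GFP cells on day 7 (Col1a1), and of 6 on day 15, 1 was higher (Dcn) and 2 lower (Lum and Col1a1). Their sums were 775 to 823 CPM in GFP and 656 to 818 CPM in mCherry libraries on day 7, and 1357 to 1544 CPM in GFP, 943 to 1184 CPM in mCherry and 1082 to 1472 CPM in control libraries of run 2. Of 3 neutrophil markers tested, 1 was lower in GFP cells on day 7 and 2 on day 15, with sums of at most 38.95 CPM in any library. T and NK markers summed to at most 5.57 CPM in any library. The part of these other cells in the results was not tested.

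Replication genes were lower in GFP cells that survived Jedi T cells than in mCherry cells of the same tumours on both days. On day 7, 29 of 45 members fell, none rose and 16 were not called by edgeR's quasi-likelihood F-test with tumour as a block (Benjamini-Hochberg adjusted p at 0.05), where 9.33% of 14578 genes fell and 8.89% rose. The groups did not overlap for 27 members, all lower in GFP cells, against 17.3% of genes. On day 15, 38 members fell, none rose and 7 were not called, where 10.6% of 14260 genes fell and 8.94% rose, and 40 members were lower without overlap, against 18.4% of genes. The median log2 fold change of the members, GFP over mCherry, was -0.58 on day 7 and -0.82 on day 15, with medians of all genes near 0 (-0.00 and 0.01). Called falls were 1.31-fold to 2.18-fold on day 7 and 1.22-fold to 2.39-fold on day 15. The 29 members called on day 7 were all called on day 15. The summed CPM of the members was 2597 ± 550.1 in GFP and 3887 ± 354 in mCherry libraries on day 7, and 1651 ± 280.2 in GFP and 2603 ± 154 in mCherry libraries on day 15 (SD, n = 3 each). Day 7 and day 15 levels come from tables scaled apart and are not compared.

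**Figure D2:**
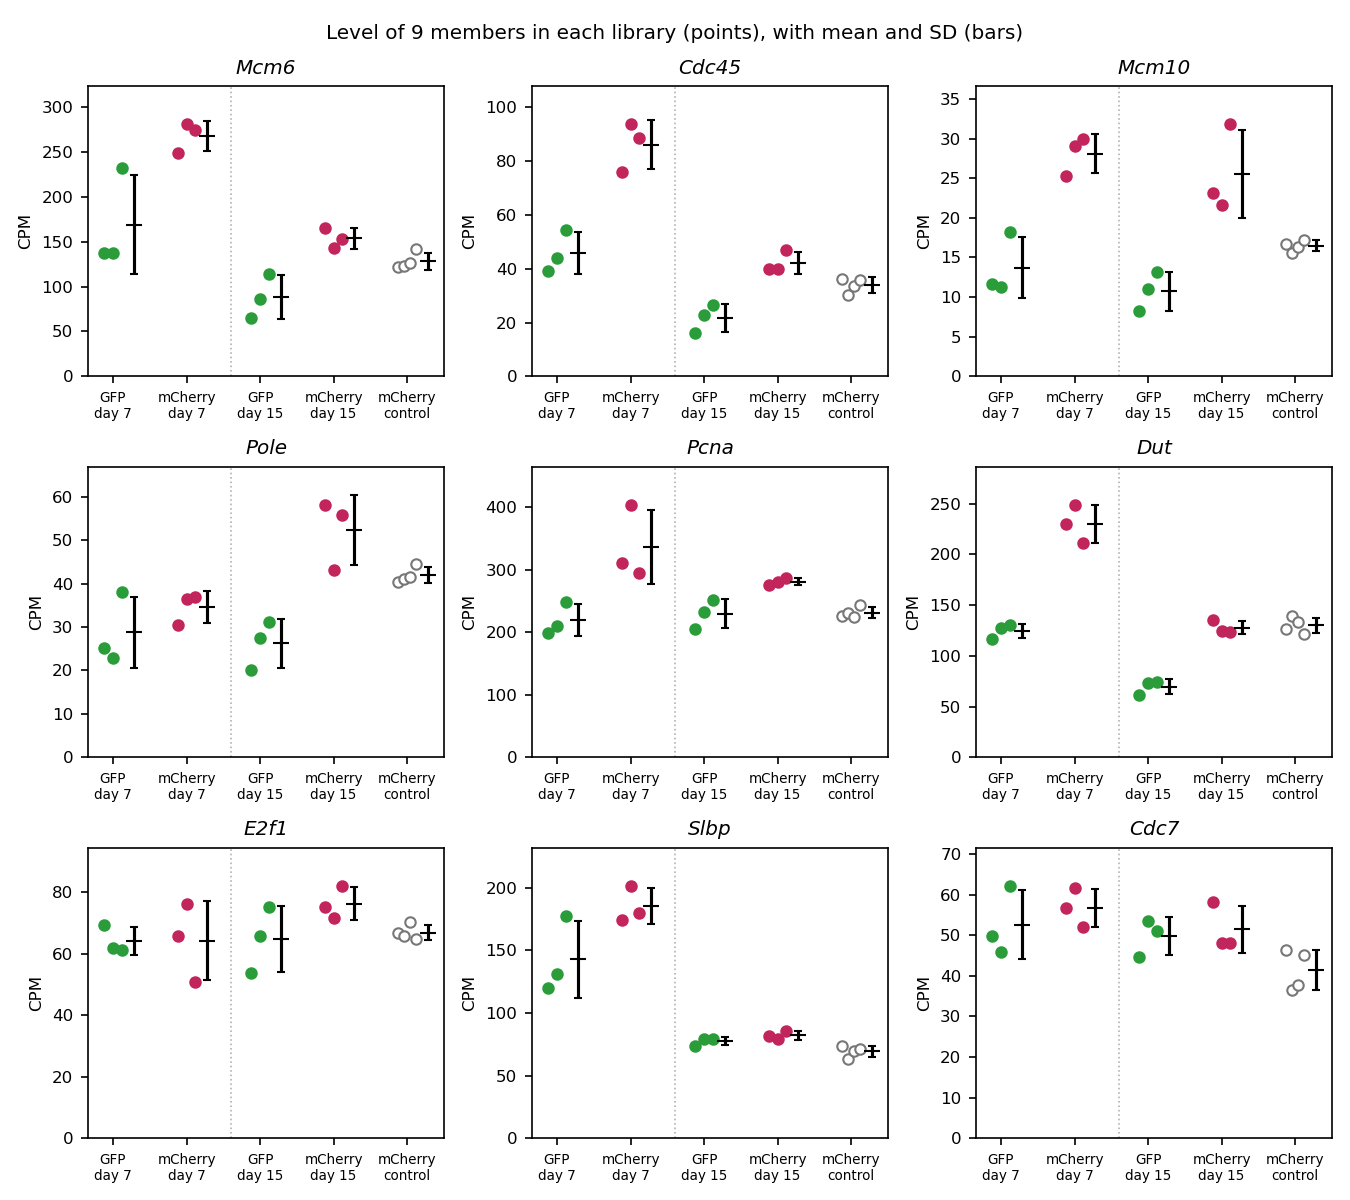
Level in CPM of 9 members in each library (points), with the mean and SD of each group (bars), for GFP and mCherry cells of day 7, left of the dotted line, and GFP, mCherry and control cells of run 2, right of it. Mcm6, Cdc45, Mcm10, Pcna and Dut were called lower in GFP than mCherry cells on both days, Pole was called on day 15 alone, and E2f1, Slbp and Cdc7 were called on neither day. The tables left and right of the line were scaled apart.

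Of the 10 licensing genes, which mark origins and load the helicase ring, 8 fell in GFP cells on day 7 and 9 on day 15. Cdc6 (chr11:98907801-98923940), an ATPase that loads the MCM ring, had 17.1, 15.3 and 29.8 CPM in GFP libraries 2, 3 and 4 of day 7, against 39.4, 46.6 and 43.7 CPM in the mCherry libraries of the same tumours. On day 15 Cdc6 had 5.76, 11.9 and 12.4 CPM in GFP libraries 1, 2 and 3, against 22.9, 21.6 and 23.5 CPM in mCherry libraries. The groups were apart on each day, and the falls were 2.16-fold (log2 fold change -1.11 ± 0.19 SE, edgeR adjusted p = 0.00328) and 2.35-fold (-1.23 ± 0.20, edgeR adjusted p = 0.00240). Mcm6 (chr1:128331590-128359664), a subunit of the ring, had 137, 137 and 232 CPM in day 7 GFP cells and 249, 281 and 274 CPM in day 7 mCherry cells. On day 15 it had 64.9, 86.4 and 114 CPM in GFP cells and 166, 142 and 153 CPM in mCherry cells. The third GFP tumour of each day was the highest of its group, yet below every mCherry library, and Mcm6 fell 1.64-fold on day 7 (edgeR adjusted p = 0.00873) and 1.78-fold on day 15 (edgeR adjusted p = 0.00333). Mcm7, another ring subunit, had 69.7, 81.5 and 102 CPM in GFP cells against 121, 136 and 115 CPM in mCherry cells on day 7, and 68.9, 72.2 and 91.1 CPM against 122, 109 and 122 CPM on day 15, falls of 1.49-fold and 1.54-fold without overlap. All 6 ring subunits fell on both days, by log2 -0.41 (Mcm2) to -0.76 (Mcm4) on day 7 and -0.62 (Mcm7) to -1.08 (Mcm3) on day 15. All 6 lost their day 7 call without tumour 3. Mcm2, Mcm5 and Mcm7 lost it without tumour 2 as well, and Mcm2 also without the block. Orc1, the ATPase of the origin recognition complex that is made in G1, fell by 0.74 and 0.93 on the log2 scale, whereas Orc6 of the same complex was not called on either day (-0.28, edgeR adjusted p = 0.189, and -0.16, edgeR adjusted p = 0.362). Cdt1, the partner of Cdc6 in loading, did not pass on day 7 (-0.02 ± 0.12, edgeR adjusted p = 0.935) and fell on day 15 (-0.42 ± 0.10, edgeR adjusted p = 0.0160).

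Of the 7 genes that turn the loaded ring into a working helicase, 5 fell on each day. Gins1 (chr2:150905400-150931280), a subunit of GINS, had 13.1, 14.6 and 21.01 CPM in GFP cells on day 7, against 36.6, 36.5 and 31.8 CPM in mCherry cells. On day 15 it had 6.25, 6.58 and 10.6 CPM in GFP cells, against 18.5, 17.4 and 18.5 CPM in mCherry cells. No libraries overlapped, and the fall was the largest of the members on day 7, 2.18-fold (-1.13 ± 0.18, edgeR adjusted p = 0.00255), and 2.38-fold on day 15 (edgeR adjusted p = 8.17e-04). Mcm10 (chr2:4989714-5012791), which is needed to activate the helicase, had 11.7, 11.3 and 18.2 CPM in day 7 GFP cells against 25.3, 29.1 and 29.9 CPM in mCherry cells, and 8.20, 11.0 and 13.1 CPM in day 15 GFP cells against 23.1, 21.7 and 31.8 CPM in mCherry cells. Its fall was the largest and had the smallest p of the members on day 15 (2.39-fold, -1.26 ± 0.13, edgeR adjusted p = 2.21e-04), and it was 2.08-fold on day 7 (edgeR adjusted p = 0.00221). Cdc45 (chr16:18780447-18811987), the factor that binds the ring with GINS, had 39.1, 43.9 and 54.3 CPM in GFP cells against 76.1, 93.8 and 88.4 CPM in mCherry cells on day 7, with the second smallest p of the members (-0.92 ± 0.11, edgeR adjusted p = 4.78e-04). On day 15 Cdc45 had 15.96, 22.9 and 26.4 CPM in GFP cells and 39.7, 39.8 and 47.0 CPM in mCherry cells, a fall of 1.98-fold. Of the kinase pair, Dbf4, the activating subunit, had 42.3, 39.3 and 55.1 CPM in GFP cells against 55.0, 58.2 and 65.0 CPM in mCherry cells on day 7. On day 15 it had 29.1, 35.0 and 36.7 CPM against 54.1, 42.8 and 58.2 CPM. It fell 1.31-fold on day 7, where 1 GFP library passed the lowest mCherry library, and 1.54-fold on day 15, with no overlap. The day 7 call of Dbf4 was lost with DESeq2, without the block, and without tumour 2 or tumour 3. Its catalytic partner Cdc7 had 49.8, 45.8 and 62.2 CPM in GFP cells against 56.6, 61.5 and 52.1 CPM in mCherry cells on day 7, and 44.7, 53.6 and 51.0 CPM against 58.1, 48.0 and 48.1 CPM on day 15. The groups overlapped on both days and Cdc7 was not called (-0.12 ± 0.14, edgeR adjusted p = 0.597, and -0.05 ± 0.11, edgeR adjusted p = 0.787). Whether Dbf4 and Cdc7 differ from each other was not tested. Gins2 fell on both days (-0.58 and -0.48), and Gins3 was not called on either (-0.49, edgeR adjusted p = 0.176, and -0.28, edgeR adjusted p = 0.322). The day 7 call of Gins2 was lost without tumour 2 or tumour 3. Its day 15 call was lost without the block and with any tumour left out.

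Of the 5 polymerase and primase genes, 1 fell on day 7 and 5 on day 15. Prim1, the catalytic subunit of primase, which lays the RNA primers, had 31.9, 39.9 and 54.1 CPM in GFP cells and 57.4, 80.5 and 52.7 CPM in mCherry cells on day 7. It fell 1.52-fold (edgeR adjusted p = 0.0447) in the test with tumour as a block, although the groups overlapped. Its log2 difference was -0.84 in tumour 2, -1.01 in tumour 3 and 0.04 in tumour 4. The day 7 call was lost without the block and without tumour 2 or tumour 3. On day 15 it had 13.1, 18.9 and 21.1 CPM in GFP cells and 30.5, 28.2 and 34.3 CPM in mCherry cells and fell 1.78-fold (edgeR adjusted p = 0.00222). Pole, the catalytic subunit of the leading strand polymerase epsilon, had 25.3, 22.8 and 38.1 CPM in GFP cells and 30.5, 36.5 and 37.0 CPM in mCherry cells on day 7. These groups overlapped, and the change was not called (-0.30 ± 0.15, edgeR adjusted p = 0.210). On day 15 Pole had 20.1, 27.5 and 31.1 CPM in GFP cells and 58.1, 43.1 and 55.8 CPM in mCherry cells, a fall of 2.01-fold without overlap (edgeR adjusted p = 0.00138). Pold1, the catalytic subunit of the lagging strand polymerase delta, had 40.3, 47.1 and 51.7 CPM in GFP cells against 49.5, 60.8 and 60.6 CPM in mCherry cells on day 7 (-0.30 ± 0.11, edgeR adjusted p = 0.0797), and 40.4, 54.0 and 63.2 CPM against 82.0, 80.2 and 83.1 CPM on day 15, a fall of 1.59-fold. Pola1, the catalytic subunit of polymerase alpha, and Pole2, a subunit of epsilon, were not called on day 7 (-0.33, edgeR adjusted p = 0.172, and -0.54, edgeR adjusted p = 0.0697) and fell on day 15 (-0.90 and -0.74).

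Of the 7 genes of the clamp, its loader and lagging strand processing, 6 fell on each day. Pcna (chr2:132249162-132253314), the sliding clamp, was the most abundant member per length in all groups, with 91.4 ± 10.9 RPKM in GFP and 140.0 ± 24.5 RPKM in mCherry cells on day 7, and 95.6 ± 9.68 RPKM in GFP, 117 ± 2.37 RPKM in mCherry (SD, n = 3 each) and 96.1 ± 3.68 RPKM in control cells (SD, n = 4). It had 199, 209.9 and 249 CPM in GFP cells and 310.0, 403 and 294 CPM in mCherry cells on day 7, and 205, 232 and 251 CPM in GFP cells and 275, 279 and 286 CPM in mCherry cells on day 15. The groups were apart on both days, with falls of 1.52-fold (edgeR adjusted p = 0.0116) and 1.23-fold (edgeR adjusted p = 0.0286). The day 7 call of Pcna was lost without tumour 3, and the day 15 call without the block and without tumour 2 or tumour 3. Rfc4, a subunit of the clamp loader, had 30.4, 23.9 and 35.8 CPM in GFP cells against 62.4, 70.2 and 57.7 CPM in mCherry cells on day 7, the third largest fall of that day (2.13-fold, edgeR adjusted p = 0.00141), and 7.47, 9.70 and 9.36 CPM against 15.7, 16.4 and 18.1 CPM on day 15 (1.90-fold). Rfc5 of the same loader fell by 0.46 and 0.71 on the log2 scale, while Rfc3 was not called on either day (-0.33, edgeR adjusted p = 0.113, and -0.22, edgeR adjusted p = 0.115). Lig1, which seals lagging strand fragments, had 44.6, 43.4 and 60.02 CPM in GFP cells against 61.4, 72.3 and 73.1 CPM in mCherry cells on day 7 and 42.2, 57.5 and 61.5 CPM against 84.4, 82.6 and 90.2 CPM on day 15. It fell 1.41-fold and 1.62-fold without overlap. Fen1, the flap endonuclease (1.65-fold and 2.21-fold), and Rpa2, of the complex that coats single strands (1.72-fold and 1.77-fold), also fell on both days.

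All 5 nucleotide supply genes fell on both days by edgeR, and DESeq2 called all but Rrm2. Dut (chr2:125247190-125258608), the enzyme that removes dUTP and so keeps uracil out of DNA, had 116, 128 and 130.0 CPM in GFP cells against 229.6, 249 and 211 CPM in mCherry cells on day 7, and 61.0, 73.2 and 74.2 CPM against 135, 125 and 123 CPM on day 15. The libraries of each colour lay close together, and the falls were of like size, 1.84-fold (-0.88 ± 0.10, edgeR adjusted p = 3.99e-04, the smallest of the members on day 7) and 1.85-fold (-0.89 ± 0.10, edgeR adjusted p = 2.84e-04). Rrm1, the large subunit of ribonucleotide reductase, had 108, 118 and 205 CPM in GFP cells against 197, 238 and 205 CPM in mCherry cells on day 7, where both libraries of tumour 4 stood level, and 67.6, 85.7 and 95.8 CPM against 144, 117 and 162 CPM on day 15. It fell 1.54-fold (edgeR adjusted p = 0.0320) and 1.71-fold (edgeR adjusted p = 0.00133). Rrm2, its small subunit, fell 1.93-fold and 2.00-fold by edgeR (adjusted p = 0.00973 and 0.00680), while DESeq2 did not call it on either day (adjusted p = 0.0804 and 0.0610). Tyms, which makes thymidylate, fell 1.87-fold and 1.89-fold, and Tk1, which salvages thymidine, fell 1.89-fold and 1.99-fold.

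Of the 5 regulators of entry into S phase, 0 were called by edgeR on day 7 and 3 fell on day 15. On day 7 Ccne2 and E2f8 had unadjusted p-values under 0.05 (0.0103 and 0.0457 by edgeR), and DESeq2 called Ccne2 lower. E2f1, an activating E2F, had 69.4, 61.9 and 61.2 CPM in GFP cells and 65.7, 76.2 and 50.8 CPM in mCherry cells on day 7, and 53.5, 65.8 and 75.02 CPM in GFP cells and 74.98, 71.6 and 82.0 CPM in mCherry cells on day 15. The groups overlapped on both days, and E2f1 was not called (0.01 ± 0.12, edgeR adjusted p = 0.957, and -0.25 ± 0.10, edgeR adjusted p = 0.0983). E2f8 (chr7:48866429-48881596), an atypical E2F that represses E2F targets, had 50.2, 53.1 and 77.9 CPM in GFP cells and 39.0, 55.5 and 49.4 CPM in mCherry cells on day 7, the most positive value of any member (0.32 ± 0.14, edgeR adjusted p = 0.147). On day 15 it had 50.2, 42.0 and 71.2 CPM in GFP cells and 61.7, 55.4 and 79.4 CPM in mCherry cells, and fell 1.22-fold (edgeR adjusted p = 0.0432), lower in each of the 3 tumours while the groups overlapped. That call was lost with DESeq2, without the block, and without tumour 2 or tumour 3 (adjusted p = 0.0811, 0.373, 0.290 and 0.0854). Ccne2 was lost too without tumour 1 or tumour 3. The cyclins Ccne1 and Ccne2, which switch on Cdk2 at the start of S phase, did not pass on day 7 (-0.35, edgeR adjusted p = 0.206, and -0.78, edgeR adjusted p = 0.0544) and fell on day 15 (-0.80 and -0.61). E2f2, another activating E2F and the least abundant member per length in every group, was not called (-0.57, edgeR adjusted p = 0.205, and -0.46, edgeR adjusted p = 0.110), though its groups did not overlap on either day.

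Of the 4 genes tied to chromatin assembly behind the fork, 2 fell on day 7 and 3 on day 15. Uhrf1, which brings the maintenance methyltransferase to new DNA, had 57.1, 58.5 and 85.5 CPM in GFP cells against 94.0, 101 and 101 CPM in mCherry cells on day 7 and 52.0, 68.0 and 82.7 CPM against 139.7, 120.4 and 133 CPM on day 15. It fell 1.496-fold (edgeR adjusted p = 0.0104) and 1.97-fold (edgeR adjusted p = 7.22e-04) without overlap. Slbp (chr5:33634952-33652574), which binds the stem loop of histone messages, had 119.7, 132 and 177 CPM in GFP cells against 175, 202 and 179.6 CPM in mCherry cells on day 7 (-0.39 ± 0.13, edgeR adjusted p = 0.0595), and 73.9, 79.7 and 79.4 CPM against 81.3, 79.1 and 86.1 CPM on day 15 (-0.09 ± 0.08, edgeR adjusted p = 0.489). Its groups overlapped on both days. Of the chromatin assembly factor CAF-1, the subunit gene Chaf1b fell on both days (1.70-fold and 2.07-fold), and Chaf1a was not called on day 7 (-0.39, edgeR adjusted p = 0.202) and fell on day 15 (1.72-fold). The fork protection genes fell on both days. Tipin, the partner of Timeless, had 111, 108 and 129 CPM in GFP cells against 176, 199 and 143 CPM in mCherry cells on day 7 and 26.1, 31.2 and 31.7 CPM against 49.7, 40.6 and 44.7 CPM on day 15. Clspn, the adaptor through which ATR activates Chk1, had 6.00, 11.7 and 15.7 CPM in GFP cells against 14.05, 17.3 and 20.3 CPM in mCherry cells on day 7 and 9.57, 16.98 and 18.8 CPM in GFP cells against 29.1, 24.2 and 36.0 CPM in mCherry cells on day 15. The falls were 1.48-fold and 1.52-fold for Tipin and 1.61-fold and 2.01-fold for Clspn, with overlap for Clspn on day 7 alone.

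The 3 tumours of a day differed in how far apart their colours stood. On day 7 the median member difference, GFP minus mCherry in log2 CPM, was -0.72 in tumour 2, -0.88 in tumour 3 and -0.23 in tumour 4. The GFP library of tumour 4 was the highest of the 3 GFP libraries in 43 of 45 members, and the difference was below 0 in 35 members in that tumour, against 43 in tumour 2 and 44 in tumour 3. On day 15 the medians were -1.16 in tumour 1, -0.58 in tumour 2 and -0.57 in tumour 3, and the GFP library of tumour 1 was the lowest of its group in 40 members. Taken per gene, 35 members were lower in the GFP cells of all 3 tumours on day 7, and 43 on day 15, where Cdc7 and Slbp were the others. The share of all genes lower in all 3 tumours was not counted. The day 7 count of 29 rested on tumour 3: without it 9 members fell, where 4.26% of all genes did, and without tumour 4 the count was 41, where 15.7% of all genes did. The 20 calls lost without tumour 3 were Orc1, Mcm2 to Mcm7, Gins2, Dbf4, Prim1, Pcna, Rfc5, Fen1, Lig1, Rpa2, Rrm1, Rrm2, Uhrf1, Clspn and Tipin. Without tumour 2, 9 were lost: Mcm2, Mcm5, Mcm7, Gins2, Dbf4, Prim1, Rfc5, Fen1 and Clspn. Without the block, 7 were lost: Orc1, Mcm2, Dbf4, Prim1, Rfc5, Rrm1 and Clspn. On day 15 the count stayed at 34 or 35 whichever tumour was left out. Of all genes, 1365 of 14372 fell without tumour 1, 1355 of 14404 without tumour 2 and 972 of 14426 without tumour 3. Cdt1, Gins2, Pole2, Pcna, Ccne2 and E2f8 each lost their day 15 call in at least 1 of those fits. By DESeq2, Dbf4 and Fen1 were not called on day 7 either (adjusted p = 0.0656 and 0.130).

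**Figure D3:**
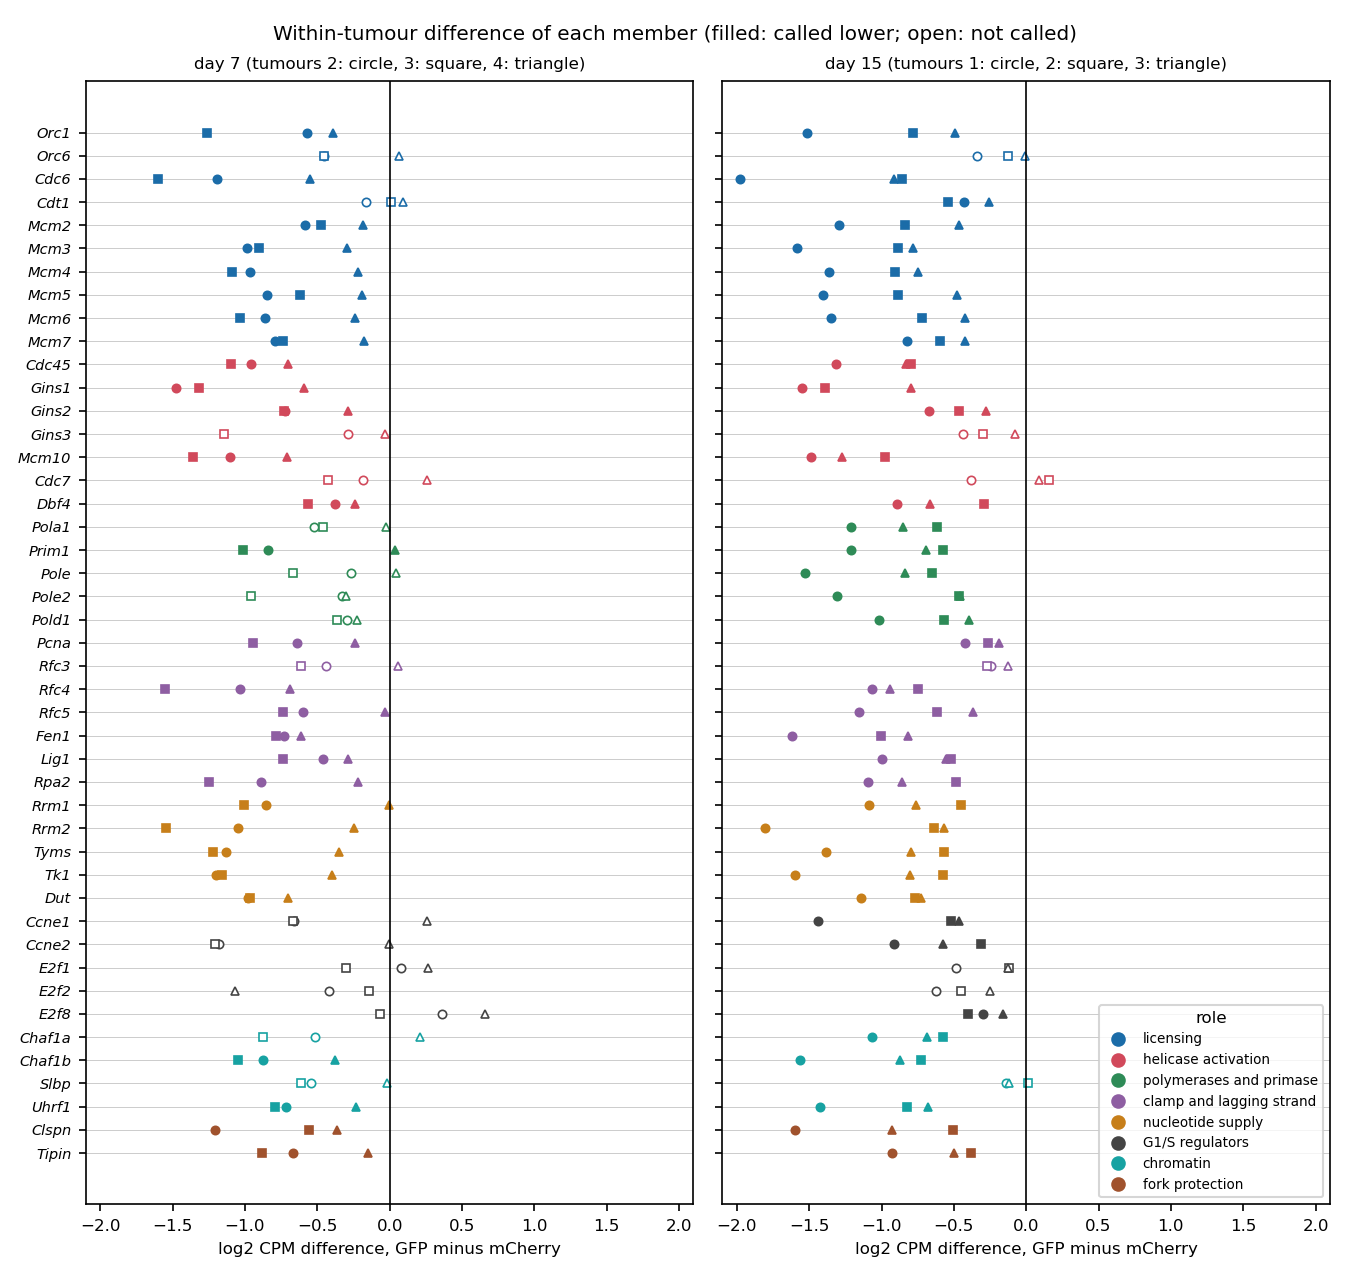
Difference of each of the 45 members within each tumour, GFP minus mCherry in log2 CPM, for day 7 (left) and day 15 (right), coloured by role. Filled symbols mark members called lower. On day 7 the triangles of tumour 4 lie nearest to 0, with a median of -0.23, and on day 15 the circles of tumour 1 lie farthest below it, with a median of -1.16.

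The size of the fall was set side by side for the days, which come from different tumours and runs. Across the 45 members the day 7 and day 15 log2 fold changes, GFP over mCherry, ran together (Pearson's r = 0.709, Spearman's rho = 0.691, a description across genes, which are not independent replicates). The day 15 value was the lower for 35 members, with a median difference of -0.18. No member passed the test of that difference in the 12 mixed tumour libraries (edgeR), where 0.211% of 16626 genes did, and 6 members (Cdt1, Mcm2, Pola1, Pole, Pold1 and E2f8) had an unadjusted p under 0.05, against 10.2% of all genes. DESeq2 called 0 members too, with 4 at an unadjusted p under 0.05. Pole differed most, by -0.71 ± 0.24 (edgeR adjusted p = 0.315), and E2f8 had the smallest p (-0.61 ± 0.18, edgeR adjusted p = 0.241). The 9 members called on day 15 alone (Cdt1, Pola1, Pole, Pole2, Pold1, Ccne1, Ccne2, E2f8 and Chaf1a), among them 4 of the 5 polymerase and primase genes, are thus not shown to differ between the days. The sign of the median difference rested on single tumours: it was 0.04 without tumour 4 of day 7 and 0.03 without tumour 1 of day 15.

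**Figure D4:**
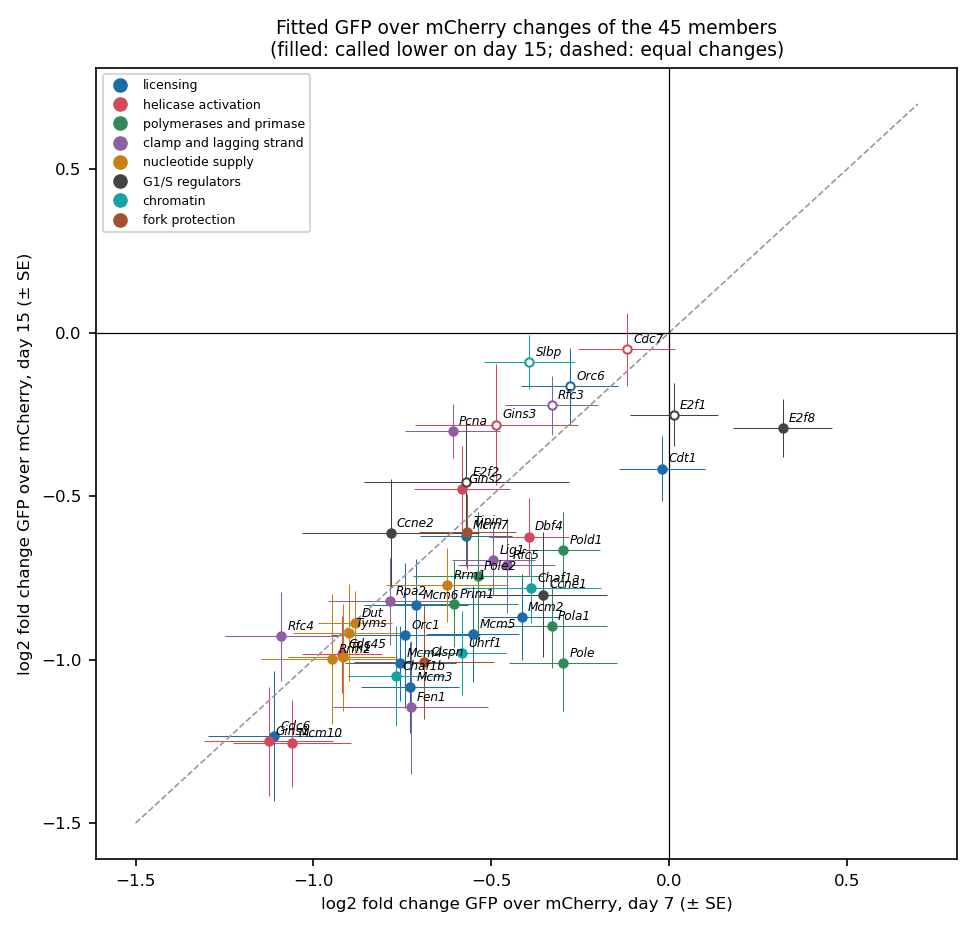
Fitted log2 fold change, GFP over mCherry, of each member on day 7 (x axis) and day 15 (y axis), with standard errors, coloured by role and filled where called lower on day 15. Cdc6, Gins1 and Mcm10 sit lowest on day 15 (-1.23 to -1.26), E2f8 (0.32) and E2f1 (0.01) lie above 0 on day 7, and 35 members lie below the dashed line of equal changes.

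Setting the day 15 cells beside the controls places both colours against tumours that met no T cells and held no GFP cells. Both comparisons use the same 4 control libraries, and the GFP and mCherry cells share tumours, so the 3 run 2 comparisons are not independent. In the mean CPM, 40 of 45 members stood in the order GFP lowest, control between and mCherry highest, against 19.4% of 15093 genes. Orc6, Cdc7 and Slbp were lowest in the controls, and Dut and E2f2 were highest there. For 18 members the libraries of the 3 groups did not overlap at all in that order, against 1.04% of genes. Mcm10 had 16.7, 15.5, 16.4 and 17.2 CPM in the controls, above all GFP libraries and below all mCherry libraries of day 15. Cdc6 had 13.98, 13.6, 14.6 and 17.8 CPM in the controls, and Gins1 had 12.7, 12.3, 13.9 and 15.4 CPM, in the same position. The summed CPM of the members was 1651 ± 280.2 in GFP and 2603 ± 154 in mCherry cells of day 15 (SD, n = 3 each) and 2135 ± 98.4 in controls (SD, n = 4).

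**Figure D5:**
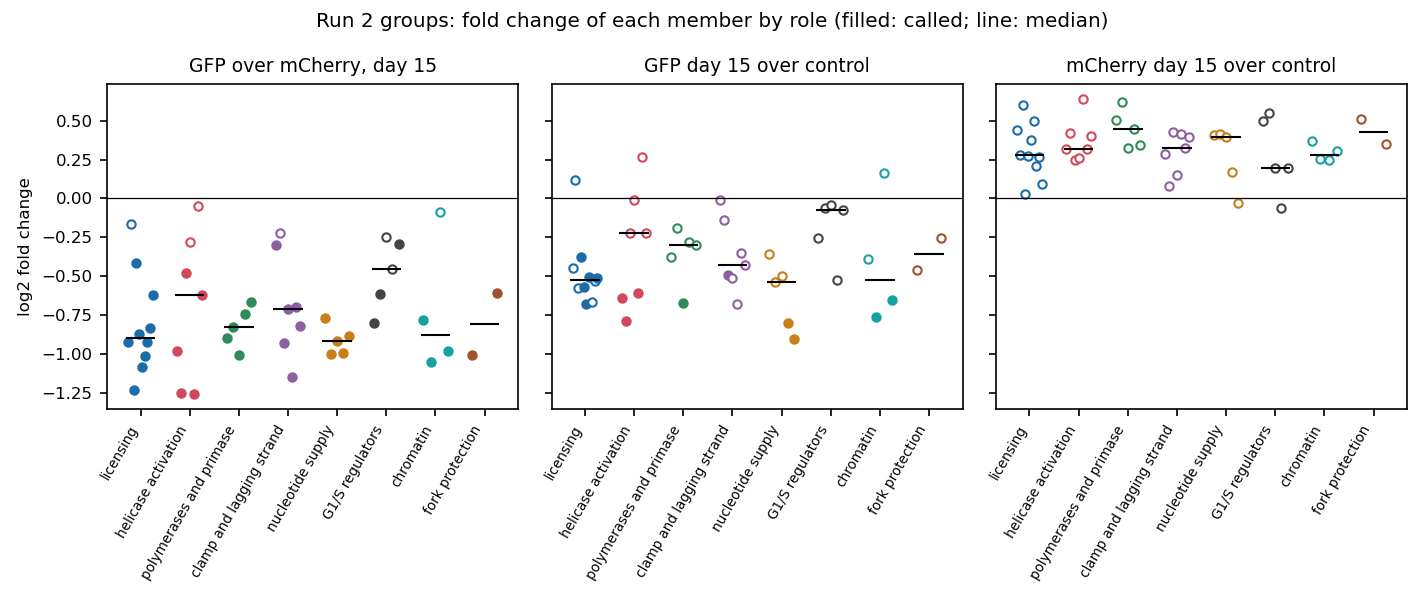
Log2 fold change of each member, grouped by role, for GFP over mCherry cells of day 15 (left), day 15 GFP cells over controls (middle) and day 15 mCherry cells over controls (right). Filled points were called and lines are medians of the role. Points lie at or below 0.27 in the middle panel, with 42 of 45 below 0, and 43 of 45 lie above 0 in the right panel, where none is filled.

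Day 15 GFP cells had lower replication gene RNA than controls in 14 members, with 0 higher, by edgeR's quasi-likelihood F-test, where 6.97% of 14801 genes fell and 6.09% rose. The median member log2 fold change was -0.45, with 42 of 45 below 0, against a median of -0.00 for all genes. Groups were apart for 26 members lower in GFP cells, against 15.3% of genes, and for 1 higher, Slbp, against 14.6%. The called members were Cdt1, Mcm2, Mcm3, Mcm4 and Mcm7 in licensing, Cdc45, Gins1 and Mcm10 in helicase activation, Pole, Rfc4, Dut, Tk1, Chaf1b and Uhrf1. Dut had 127, 139, 133 and 122 CPM in controls and fell 1.88-fold in GFP cells (-0.91 ± 0.09, edgeR adjusted p = 0.00534, the smallest of the members). Tk1 had 18.7, 28.7 and 31.9 CPM in GFP cells and 44.3, 46.6, 47.1 and 46.7 CPM in controls, a fall of 1.75-fold (edgeR adjusted p = 0.0185). In the same comparison edgeR called 9 of 12 macrophage markers, 1 of 8 endothelial markers and 2 of 6 markers of the carcinoma line lower, and 2 of 6 fibroblast markers each way, and their part was not tested. Pcna, with 226, 230.2, 223 and 243 CPM in controls, did not pass (-0.01 ± 0.08, edgeR adjusted p = 0.961). The count moved with single libraries, and so did the count of all genes called lower, 1031 of 14801 in the full fit. The member count was 4 without GFP library 1 (147 of 15496 genes) and 1 without GFP library 2 (276 of 15515 genes). Without control 2 it was 9 (546 of 14508 genes), and without control 3 it was 4 (470 of 14576 genes). With DESeq2, which called 10.4% of genes lower, it was 23.

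Day 15 mCherry cells beside the controls gave 0 called members by edgeR, where 0 of 14800 genes were called in either direction. Their median log2 fold change was 0.32, with 43 of 45 above 0, and 29 members were higher without overlap, against 7.91% of genes. Beside them, 11 of 12 macrophage markers tested lay below 0 (median -1.43), 7 of them lower without overlap and 1, Cd14, higher without overlap, with 68.6 to 84.4 CPM in mCherry and 34.4 to 67.4 CPM in control cells. All 8 endothelial markers (median -0.59) and all 6 tested markers of the carcinoma line (median -0.44) also lay below 0, edgeR called none of them, and their part in the result was not tested. An unadjusted p under 0.05 was reached by 36 of 45 members, against 14.2% of genes, and the smallest edgeR adjusted p of a member was 0.251. DESeq2 called 14 members higher, where 1.02% of genes were called higher: Cdc6, Mcm3, Mcm4, Gins1, Mcm10, Prim1, Pold1, Pcna, Rfc4, Lig1, Rrm1, Ccne1, Chaf1a and Clspn. Prim1 had 30.5, 28.2 and 34.3 CPM in day 15 mCherry cells against 20.1, 19.3, 18.8 and 22.9 CPM in controls, with no overlap (0.62 ± 0.10, edgeR adjusted p = 0.251, DESeq2 adjusted p = 0.00106). Pold1 had 82.0, 80.2 and 83.1 CPM against 60.6, 65.8, 66.8 and 65.4 CPM, also apart (0.34 ± 0.06, edgeR adjusted p = 0.251, DESeq2 adjusted p = 0.00312). Dut was level, with 135, 125 and 123 CPM in mCherry cells and 127, 139, 133 and 122 CPM in controls (-0.03 ± 0.07, edgeR adjusted p = 0.887). The labels give no day for the controls, so tumour age and the presence of T cells and GFP cells cannot be told apart here.

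The falls were set beside the octamers as a description, with no test. On day 7, 7 of 14 with an octamer and 18 of 25 without were called lower, with median log2 fold changes of -0.56 and -0.61. On day 15 the counts were 11 of 14 and 21 of 25, with medians of -0.79 and -0.82. Rfc3, picked after the matches were seen, holds octamers on both strands within 10 bases of the start and was not called on either day. Dut, whose window holds neither motif, fell on both. The windows of Dut and E2f1, both without an octamer, lie downstream of the gene start in GENCODE M21, so sequence before that start was not scanned. The windows of Cdc6 and Mcm7 lie downstream too, and those of Mcm5, Fen1, Lig1 and E2f2 wholly upstream. The side of the split for these members thus rests on the start used.

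The other genes of the pathway were read from the same fits. Of all genes tested, 9.33% fell and 8.89% rose on day 7, and 10.6% fell and 8.94% rose on day 15. Of 35 further replication genes, 7 fell on day 7 and 22 on day 15, with none higher on either day and medians of -0.24 and -0.53. Nasp, a histone chaperone, fell 1.87-fold and 1.63-fold, Rfc2 of the clamp loader 1.63-fold and 1.51-fold, and Timeless, the partner of Tipin, 1.56-fold and 2.19-fold. Ticrr, which helps to load Cdc45, fell 2.18-fold on day 15 (edgeR adjusted p = 9.01e-04). Of 20 E2F and checkpoint genes, 3 fell and 2 rose on day 7, and 7 fell and 1 rose on day 15. The rises were thus near the shares of all genes. Skp2, the F-box protein that marks p27 for destruction, fell 1.87-fold and 1.47-fold, and Ccna2, cyclin A, 1.64-fold and 1.95-fold. E2f4, an E2F that acts with pocket proteins in quiescent cells, rose 1.71-fold on day 7 (edgeR adjusted p = 0.00130) and was not called higher on day 15. Rbl2, the pocket protein p130, was the 1 gene of the 20 that rose on day 15 (1.47-fold, edgeR adjusted p = 0.00557). All 8 mitosis genes fell on both days, by log2 -0.71 (Bub1) to -1.20 (Plk1) on day 7 and -0.63 (Cdk1) to -1.34 (Plk1) on day 15.

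Replication-dependent histone genes, taken here as every symbol that starts with Hist1h, Hist2h, Hist3h or Hist4h, were for the most part thinly counted. Messages of this class mostly lack a poly(A) tail and are bound by Slbp. Whether that holds for each of these symbols was not checked. Of 68 symbols, Hist1h1c and Hist1h2bc, with 30034 and 18682 counts over the 16 libraries, held 67.3% of all counts of the class, and no other had more than 2992. In all, 28 could be tested on day 7, where 10 fell and none rose (median -0.47), and 25 on day 15, where 1 fell and none rose (median -0.01). Of all genes tested, 9.33% fell on day 7 and 10.6% on day 15, so the day 15 count was below the share of all genes. Hist1h1b, a linker histone, fell 3.36-fold on day 7 (edgeR adjusted p = 0.00108), and Hist2h2be fell 1.85-fold on day 7 and 1.69-fold on day 15. Their summed level was 181 to 227 CPM in GFP and 258 to 327 CPM in mCherry cells on day 7, without overlap, and 149 to 272 CPM in GFP, 144 to 175 CPM in mCherry and 173 to 248 CPM in control cells of run 2, with overlap. Without Hist1h1c and Hist1h2bc, neither of which was called on either day, the sum was 67.9 to 101 CPM in GFP and 113 to 171 CPM in mCherry cells on day 7, and 41.8 to 62.3 CPM in GFP, 47.6 to 54.0 CPM in mCherry and 53.1 to 68.8 CPM in control cells of run 2. For Hist1h1b the difference between the days did not pass (1.54 ± 0.45, edgeR adjusted p = 0.231). How well such messages enter these libraries is not stated in the sources used here.

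For some members reads may not be told apart from those of other genes, since the strand use of the counting is not stated in the sources used here. Of their 50-base stretches, 76.7% in Fen1, 65.4% in Gins2 and 49.7% in Chaf1a also occur in a gene on the opposite strand, mainly Tmem258 and Gm10143, Gse1 and Ubxn6. On the same strand, 19.1% in Pcna, 18.1% in Mcm7 and 15.4% in Uhrf1 occur in another gene. The share was over 5% for 11 members on the opposite strand, among them Ccne2 (14.4%), Rfc5 (9.60%), Rfc4 (9.14%), Slbp (8.41%), E2f8 (8.26%), Orc1 (7.21%), Cdc45 (5.22%) and Mcm7 (5.18%), and for 5 on the same strand, among them Pole2 (8.16%) and Tyms (5.25%). The values of all these members are uncertain for that reason. By how much was not measured, and the shares do not give it.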

How the data were processed

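RNA of 16 libraries of sorted 4T07 cells was measured in bulk. Per the labels' protocols, digestion took 20 minutes at 37 °C, cells were sorted after staining for CD45 and DAPI, and a company made the gene counts for the authors. The deposited values used are these raw counts per gene, on mm10 per the submitters' processing notes, which also name DESeq2. No source used here names the aligner, counter, annotation or strand use. Each table holds 49315 genes, of which 176 have no symbol and take at most 0.0110% of a library's counts. No library repeated another within sampling noise. The labels do not say how many animals lie behind the tumours beyond a tumour number each.

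Genes were kept with filterByExpr (minimum count 10, minimum total 15), normalized by TMM and tested in edgeR 4.0.16 (R 4.3.3) with quasi-likelihood F-tests, adjusted by Benjamini and Hochberg over all genes tested, at 0.05. GFP and mCherry cells of a day were fitted with tumour as a block, which leaves 2 residual degrees of freedom, and comparisons with controls had none (3 against 4 libraries). The difference between days was a contrast in the 12 mixed tumour libraries. CPM use TMM-scaled library sizes, with the 2 tables scaled apart, RPKM add exon lengths of GENCODE M21, log2 CPM has a prior count of 2, and SE divides the log2 fold change by the root of its F statistic. Gene positions are from GENCODE M21 (GRCm38). The procedure was tested on simulated counts. DESeq2 1.42.0, its size factors, other count filters, no block, and leaving out each library or tumour were alternatives.

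The day 7 count columns carry the numbers 2, 3 and 4 where the labels have 1, 2 and 3, and they and the control columns were therefore assigned by group only. Tumour numbers are those of the columns. Residuals of the GFP and mCherry libraries of 1 number correlated at 0.110 to 0.162 on day 7 (other pairs at -0.130 to 0.00918) and 0.0899 to 0.231 on day 15 (others -0.182 to 0.0189), and the labels give both colours of a tumour the same tumour number. The members and gene lists were chosen with earlier results of these data known, so no p is given over the list. Library values are given for the 2 most abundant members of each role, the 2 of smallest p and the 3 largest called changes of a comparison, and for further members where a result turned on them.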

Additional observations from a re-analysis of the deposited data

Results flagged for a closer look

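In the 4 control libraries, 3 of 45 members had 1 library far from the others, near the rate of about 1 group in 20 that chance marks. The share of all genes with such a gap was not counted. In each it was control 4, the highest of the controls in 26 of 45 members. Rrm2 had 64.3 CPM in control 4 against 48.3 to 49.9 CPM in the others, a gap of 0.903 of the range. Rfc5 had 31.7 CPM against 24.0 to 24.9 CPM, a gap of 0.883 of the range. Ccne1 had 12.7 CPM against 10.4 to 10.7 CPM, a gap of 0.869 of the range. None of the 3 was called against the controls in day 15 mCherry or GFP cells by edgeR, and DESeq2 called Ccne1 higher in mCherry cells.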

How the results depend on the processing

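The count of lower members held within 1.5 times under DESeq2 (27 on day 7 and 36 on day 15), its size factors, both other count filters and, on day 15, each tumour left out (34 to 35). DESeq2 called 1168 of 14578 genes lower on day 7 and 1270 of 14260 on day 15, where the main fits called 1360 and 1507. Without the replicate block 22 members fell on day 7, where 1081 of 14578 genes did. On day 15 without the block 34 members fell, where 1180 of 14260 genes did. Leaving out 1 tumour gave 9 to 41 on day 7, with 9 without tumour 3 (4.26% of all genes) and 41 without tumour 4 (15.7% of all genes). Against the controls, DESeq2 called 14 members higher in day 15 mCherry cells (151 of 14800 genes), where edgeR called 0 (and 0 with any library left out). It called 23 lower in day 15 GFP cells (1534 of 14801 genes). There, leaving out 1 library gave 1 to 16 by edgeR, with 1 without GFP library 2 (276 of 15515 genes) and 16 without GFP library 3 (510 of 15503 genes). With no filter on low counts, 2 members passed the difference between days, both below 0, where 176 of 34497 genes passed below 0 and 178 above. With the filter, 18 of 16626 genes passed below 0 and 17 above. The median difference between days of the members ran from -0.3476 to 0.0406 over the tumours left out. It turned positive without tumour 4 of day 7 (0.0406) and without tumour 1 of day 15 (0.0258). Small values changed sign. On day 7 E2f1 was -0.0045 without the block, -0.0055 without tumour 2 and -0.1119 to 0.1757 over the tumours left out, Cdt1 was -0.0763 to 0.0645 (positive without tumour 2) and Cdc7 -0.3068 to 0.0388 (positive without tumour 3), and on day 15 Cdc7 was -0.1446 to 0.1126 (positive without tumour 1). The cause was not tested.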

Other observations

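In day 15 GFP cells beside the controls, 6.97% of all genes were lower and 6.09% higher by edgeR. Of 35 further replication genes, 3 were lower by edgeR (Timeless 1.82-fold, Rfc2 1.44-fold and Dnmt1 1.32-fold) and 2 higher (Orc3 1.30-fold and Pole4 1.21-fold), with a median log2 fold change of -0.23, counts near those shares. Of 20 E2F and checkpoint genes, 3 were lower (Ccna2 1.49-fold, Tfdp2 1.38-fold and Skp2 1.22-fold) and 2 higher (Rbl2 1.27-fold and Rad9a 1.23-fold). Of 8 mitosis genes, 6 were lower in GFP cells than in controls, and all 8 lay above 0 in day 15 mCherry cells over controls (median 0.46), where edgeR called none.

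The small and large subunits of ribonucleotide reductase did not keep 1 ratio. Per length, Rrm2 over Rrm1 was 3.00 to 3.15 in GFP and 3.46 to 4.36 in mCherry libraries on day 7, without overlap. On day 15 it was 1.36 to 2.04 in GFP, 1.79 to 2.25 in mCherry and 1.84 to 2.23 in control libraries, with overlap. These ratios were not tested.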
